A study of Saccharomyces cerevisiae with 262 samples.

Results

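The hexose transporters of budding yeast (HXT genes) were followed in a cross between a wine strain and a laboratory strain. The description covers 10 of them by name: HXT1, HXT2, HXT3, HXT4, HXT5, HXT7, HXT13, HXT15, HXT16 and HXT17. Each was read by 1 probe annotated to its symbol, so that they made up 10 of the 5645 probes with a gene symbol. RNA came from haploid segregants of the cross, from the wild isolate RM11-1a (RM) and from BY4716 (BY), which is isogenic to the laboratory strain S288c. Every sample was hybridised on 2-colour arrays against a pool of BY4716 RNA, in 131 dye-swap pairs: 1 pair (2 of 226 arrays) for each segregant, 12 pairs for RM under 6 replicate numbers, and 6 pairs for BY. A segregant is therefore a single strain measured on a single pair, and its value holds both its genotype and its measurement error. The growth medium is not given in the sources used here.

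Hexose transporters are membrane proteins that let glucose and related sugars flow down their gradient into the cell. Hxt1 and Hxt3 bind glucose with low affinity and are made when it is abundant, whereas Hxt2, Hxt4 and Hxt7 serve at lower glucose and are repressed when it is plentiful. Hxt5 is known for expression in slowly growing or stressed cells. Hxt13, Hxt15, Hxt16 and Hxt17 form a group of closely similar proteins encoded near chromosome ends, which have been reported to transport sugar alcohols such as mannitol and sorbitol. The sensors Snf3 and Rgt2 relieve the repression exerted by Rgt1 with its partners Mth1 and Std1. The kinase Snf1 acts against the repressor Mig1.

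Values are given as log2 of own RNA over the BY pool, so that 0 stands for the level of the pool. They set a probe against itself in other strains and not against another probe. No source used here states the direction of the ratio, and the likely one was taken from strain markers such as LEU2, which stood 6.00 below BY in RM, and STE2, which stood 5.37 above it. Between 3769 and 6581 probes were measured on a segregant array, between 4748 and 6571 on an RM array and between 3597 and 6329 on a BY array. The 2 arrays of a segregant pair correlated across segregants with r = 0.973 for HXT2, 0.958 for HXT4 and 0.944 for HXT7, with 0.824 for HXT5, and with 0.671 to 0.779 for the other members apart from HXT1, for which r was 0.410. Arrays of 1 dye orientation, segregants and parents together, had correlations across probes down to −0.42. For own RNA in Cy5, 17 of 7750 pairs of arrays lay below −0.3. Among single parental arrays of 1 dye orientation the lowest correlation was −0.15. Means of dye-swap pairs, used in the next paragraph, gave lower values.

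The BY replicates fell into 2 sets. Replicates 1 and 2 are the only BY samples whose titles are spelled By. In the means of dye-swap pairs, they correlated with replicates 3 to 6 at a mean r of −0.31 across probes. Between replicates 1 and 2 r was 0.568, and among replicates 3 to 6 its mean was 0.770. All 7 hexose transporters tested between the parents had values in BY replicates 1 and 2 that did not overlap those of replicates 3 to 6, as did 55.2% of the 4905 probes compared. HXT4 and HXT7 differed most between these sets: HXT4 averaged 0.52 in replicates 1 and 2 and −1.51 in replicates 3 to 6, and HXT7 averaged 0.57 and −1.33. They were 2 of 7 members whose sets differed by more than 1 log2 unit, against 1.14% of all probes. RM replicates 1 and 2 also lay above RM replicates 3 to 6 in HXT4, by 0.54, in HXT7, by 0.44, in HXT5, by 0.69, and in HXT2, by 0.25. In HXT1 they lay below them, by a difference of −0.28. The RM sets overlapped in HXT3, HXT13, HXT15, HXT16 and HXT17. The share of all probes whose RM sets did not overlap was not computed, so this split cannot be called particular to the members. What separates the sets was not tested, and each parental result is therefore given with and without BY replicates 1 and 2 where they change a call.

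The 18 segregants whose strain names begin with the numbers 21 to 26 also stood apart from the other 95 in some relations between probes, which was noticed after the values were seen. The labels say of them only the strain name. None of the 10 members differed by more than 1 log2 unit between the means of the 2 sets, against 0.589% of 6457 probes. HXT2 averaged −0.32 in these 18 and 0.64 in the others, HXT13 averaged −0.04 and −0.82, HXT4 averaged −0.45 and 0.25, and HXT7 averaged −0.49 and 0.18. Some of the correlations across segregants that differ between the sets are given within each, and the rest only over all segregants. An r within these 18 strains is imprecise, and no difference in r between the sets was tested. What separates the sets was not tested.

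**Figure D1:**
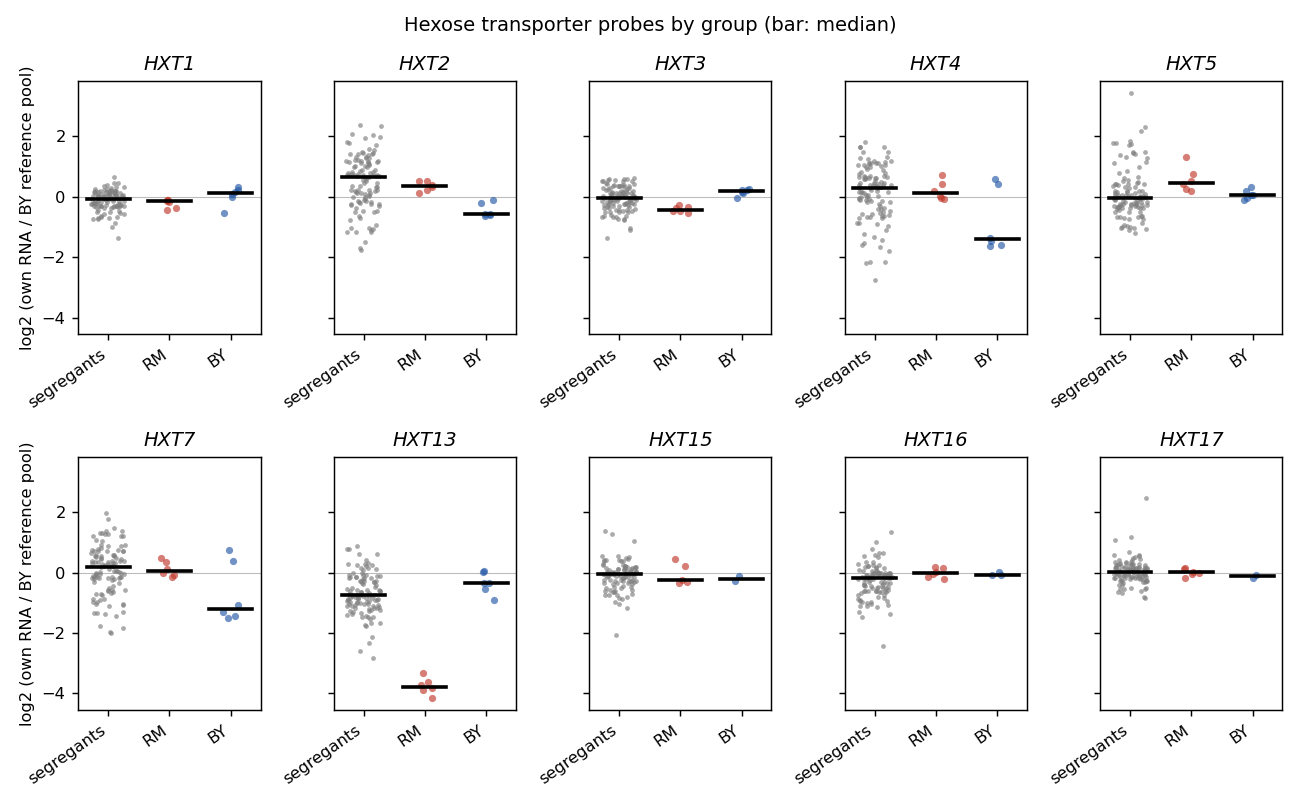
Log2 ratio of own RNA over the BY pool (vertical axis) for the 10 hexose transporter probes in segregants (grey, 1 point per strain), RM (red, 1 point per replicate) and BY (blue, 1 point per replicate), with a bar at each group's median. HXT13 in RM lies between −4.16 and −3.34, below all segregants and BY replicates, and BY replicates of HXT4 and HXT7 lie in 2 clusters.

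The comparison of the parents asked which hexose transporters differ in level between the wine strain and the laboratory strain. HXT2, HXT4 and HXT5 were higher in RM than in BY and HXT3 and HXT13 were lower, while HXT1 and HXT7 did not pass the threshold in the fit of all replicates. That made 5 of 7 tested members called, at an adjusted p under 0.05 in limma, where 52.1% of the 5067 tested probes were called. By direction, 3 members were higher in RM, against a background of 30.2%, and 2 were lower, against 21.9%. The median difference was 0.48 over the 7 members and 0.015 over all tested probes. HXT15, HXT16 and HXT17 were not tested, because only 2 or 3 BY replicates gave a value for them. The labels do not tell whether parental replicates came from separate cultures, and the p-values cover no more than the spread among the samples at hand, which may be technical.

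Of the low-affinity transporters, HXT3 gave the clearer difference. It ran from −0.53 through a median of −0.43 to −0.26 in RM, and from −0.05 through 0.19 to 0.27 in BY. The RM and BY replicates did not overlap. HXT3 was 1.49-fold lower in RM (log2 difference −0.57, SE 0.0614, limma adjusted p = 4.61e-06). HXT1, the low-affinity transporter made at high glucose, ran from −0.45 through −0.14 to −0.09 in RM, and from −0.53 through 0.12 to 0.33 in BY. The groups overlapped through BY replicate 1, the lowest BY value. The difference of −0.27 (SE 0.125, 95% interval −0.53 to 0.0038) had a limma adjusted p of 0.0906. With the replicate number as a block, which pairs RM and BY samples of the same number, the adjusted p was 0.0111, where 54.8% of all probes were called. The labels do not state what a replicate number marks, so this pairing is an assumption. Fitted without BY replicates 1 and 2, the difference was −0.42 with a limma adjusted p of 5.01e-04, where 63.3% of 5157 probes were called.

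Among the transporters for lower glucose, HXT2 stood apart most cleanly. It ran from 0.13 through a median of 0.36 to 0.52 in RM, and from −0.65 through −0.57 to −0.11 in BY, and the groups did not overlap. HXT2 was 1.74-fold higher in RM (log2 difference 0.80, SE 0.103, limma adjusted p = 2.43e-05). HXT4, a transporter induced at low glucose, ran from −0.06 through 0.12 to 0.71 in RM, and from −1.62 through −1.41 to 0.60 in BY. BY replicates 1 and 2 lay within the RM range and replicates 3 to 6 lay more than 1 log2 unit below it. Its difference of 1.05 (SE 0.393, limma adjusted p = 0.0384) was no longer called in 8 of 12 fits that each left out 1 replicate, with values from 0.89 to 1.34. Those were the fits without BY replicate 3, 4, 5 or 6 and without RM replicate 1, 2, 3 or 4. The difference was 1.73 without BY replicates 1 and 2, with a limma adjusted p of 5.07e-07.

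HXT7, a high-affinity transporter, followed HXT4. It ran from −0.15 through 0.05 to 0.48 in RM, and from −1.49 through −1.19 to 0.74 in BY, and the groups overlapped through BY replicates 1 and 2. The difference of 0.82 (SE 0.368, 95% interval 0.021 to 1.61) had a limma adjusted p of 0.0789, and of 0.0226 with the replicate number as a block. It was 1.45 without BY replicates 1 and 2, with a limma adjusted p of 9.71e-07. HXT6, the neighbour of HXT7 that encodes a nearly identical protein, gave 0.83 (SE 0.450, limma adjusted p = 0.140), and its probe and that of HXT7 may each read both genes. HXT5 ran from 0.20 through 0.47 to 1.33 in RM, and from −0.09 through 0.08 to 0.34 in BY. The lowest RM replicates overlapped the highest BY replicates. HXT5 was 1.40-fold higher in RM (log2 difference 0.48, SE 0.161, limma adjusted p = 0.0223), and this call was lost without BY replicates 1 and 2 (0.41, limma adjusted p = 0.0702).

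**Figure D2:**
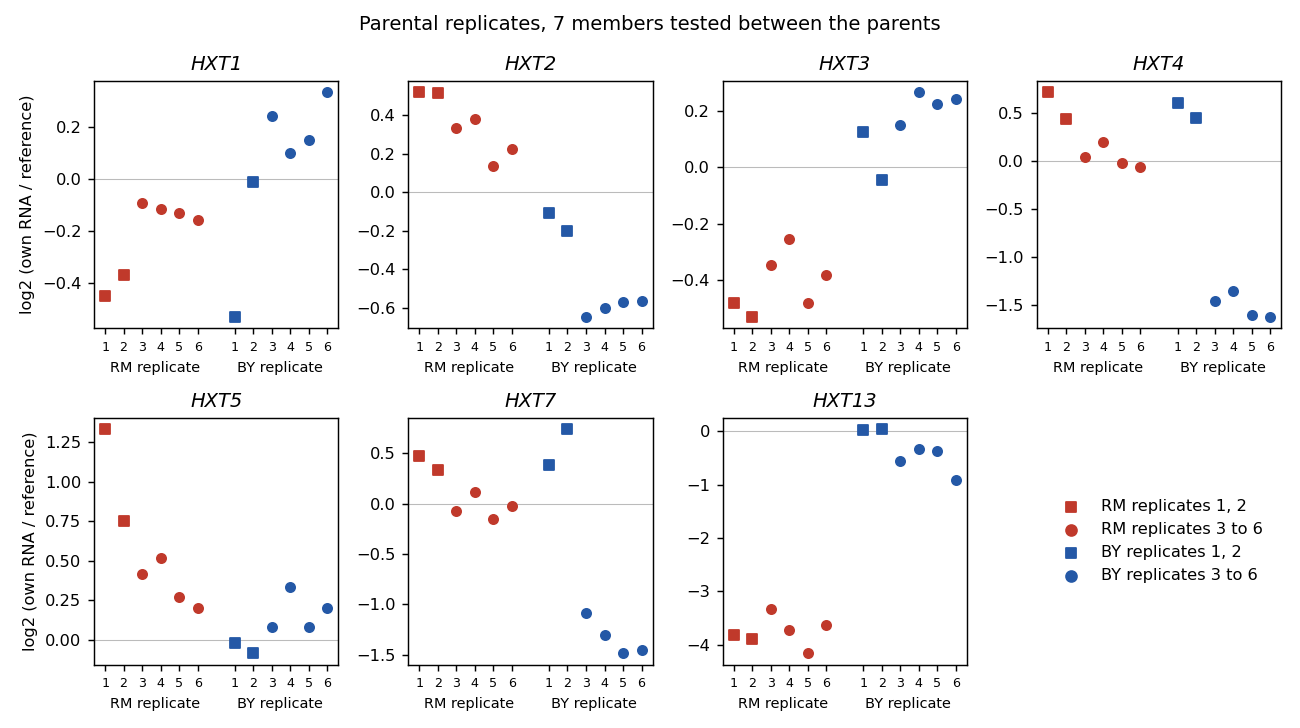
Log2 ratio of own RNA over the BY pool in each RM (red, left) and BY (blue, right) replicate, by replicate number, for the 7 members tested between the parents; squares mark replicates 1 and 2 and circles replicates 3 to 6. In HXT4 and HXT7 the BY squares average 0.52 and 0.57 and the BY circles −1.51 and −1.33.

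HXT13, of the group that transports sugar alcohols, had the widest gap of the 7 members. It ran from −4.16 through a median of −3.77 to −3.34 in RM, and from −0.91 through −0.35 to 0.05 in BY. No RM replicate came near the BY range. HXT13 was 10.7-fold lower in RM (log2 difference −3.42, SE 0.164, limma adjusted p = 1.10e-09), and the call held in each of 24 alternatives, with values from −3.97 to −1.46. The smallest of these came from quantile normalization between pairs, which gives every pair the same spread of values. Whether the RM signal of this probe exceeded background was not tested. The probe followed genes of Ty elements, the yeast retrotransposons, across 95 segregants (r = 0.950) but not across segregants 21 to 26 (r = 0.0137), as given below. Whether it reads HXT13 alone was not tested.

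The 3 other members of that group showed no such gap. HXT15 read 0.20, −0.26, −0.35, −0.30 and 0.46 in 5 RM replicates, and −0.27 and −0.13 in 2 BY replicates. HXT16 ran from −0.20 through −0.01 to 0.17 in RM and read −0.09, −0.09 and 0.02 in 3 BY replicates. HXT17 ran from −0.19 through 0.0047 to 0.15 in RM and read −0.18 and −0.07 in 2 BY replicates. In all 3 the BY values lay within the RM range, and in HXT15 and HXT17 both came from BY replicates 1 and 2.

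**Figure D3:**
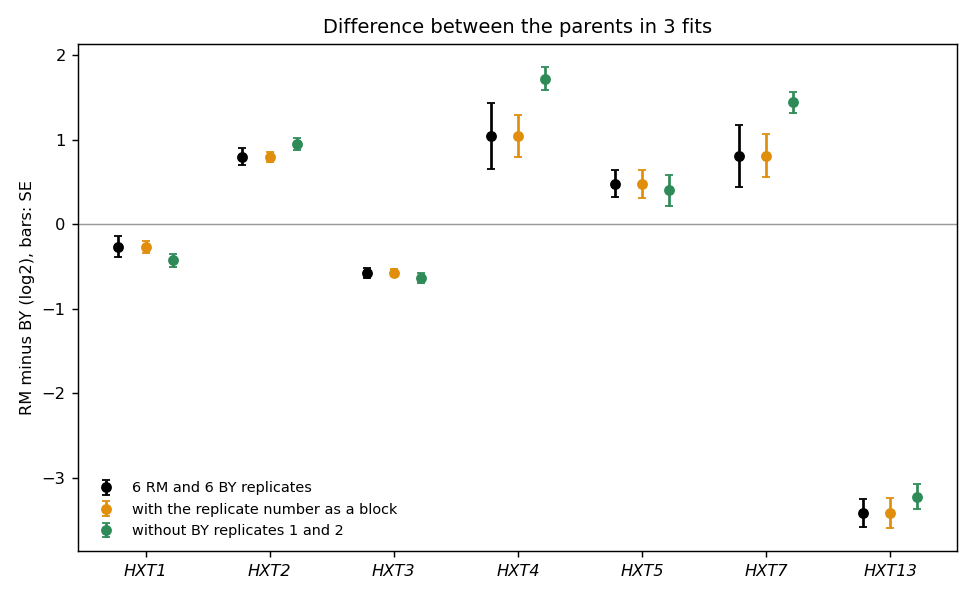
RM minus BY on the log2 scale, with standard errors as bars, for the 7 tested members in limma fits of all 6 RM and 6 BY replicates (black), with the replicate number as a block (orange) and without BY replicates 1 and 2 (green). HXT4 moves from 1.05 in the first fit to 1.73 in the last, and HXT13 stays below −3 in all of them.

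The replicates of the parents did not overlap in 3 of the 7 tested members, HXT2, HXT3 and HXT13, against 33.7% of the tested probes. In HXT13 all segregants exceeded the highest RM replicate, 43 (38.1%) lay below the lowest BY replicate and 16 (14.2%) above the highest. For HXT2, 61 segregants lay above every parental replicate and 14 (12.4%) below every one. For HXT3, 25 (22.1%) lay above and 12 (10.6%) below every parental replicate. HXT5 had the most segregants below all parental values among the 7 tested members, 51 (45.1%), with 13 (11.5%) above. HXT4 had 28 (24.8%) above and 6 below, HXT7 had 21 (18.6%) above and 4 below, and HXT1 had 6 above and 13 below. BY replicate 1 or 2 set the highest parental value of HXT7 and HXT13 and the lowest of HXT1 and HXT5. Against RM replicates alone, 37 segregants lay above the highest in HXT7. Below the lowest RM replicate lay 16 in HXT1 and 77 in HXT5. Counts without BY replicates 1 and 2 are not given. Each segregant is 1 pair and each parental value is a replicate mean or pair, so these counts also hold measurement error.

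The segregants were then set against the midpoint of the parents, which asks whether their mean lies midway between the parental means. HXT13 was the only member called, 1 of 7 tested, where 2.01% of the tested probes were called, 1.4% above the midpoint and 0.612% below it. The segregants ran from −2.82 through a median of −0.76 to 0.89 in HXT13, and averaged −0.69 ± 0.68 (SD), against −3.76 ± 0.28 in RM (SD, n = 6) and −0.35 ± 0.36 in BY (SD, n = 6). Their mean exceeded the midpoint by 1.36 (SE 0.199, limma adjusted p = 2.20e-07), and all but 4 segregants lay nearer to the BY mean. The excess was 0.61 with quantile normalization between pairs (limma adjusted p = 0.0382) and 1.24 without segregants 21 to 26 (limma adjusted p = 1.17e-06). Of 21 tested genes of Ty elements, to which HXT13 was alike across segregants (below), 13 were called above the midpoint as well. HXT2 averaged 0.49 ± 0.90 in segregants, 0.35 ± 0.16 in RM and −0.45 ± 0.23 in BY (SD). Its mean lay 0.54 above the midpoint (95% interval 0.029 to 1.05, limma adjusted p = 0.353). With all replicates, the intervals of the other 5 members included 0: HXT4 differed by 0.44 (−0.10 to 0.98), HXT7 by 0.36 (−0.12 to 0.85), HXT5 by −0.21 (−0.68 to 0.26), HXT3 by 0.07 (−0.15 to 0.30) and HXT1 by −0.03 (−0.22 to 0.17). Without BY replicates 1 and 2, HXT4 lay 0.78 above the midpoint (SE 0.296) and HXT7 0.68 above it (SE 0.265). Neither was called in that fit (limma adjusted p = 0.237 and 0.252). With array weights by group, HXT2 and HXT4 also passed, with limma adjusted p of 0.00347 and 0.0379. The share of all probes called in that weighted fit is not given. The 2.01% belongs to the fit without weights and is no background for it.

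The members differed in how much they varied among the segregants. The SD across segregants was 0.92 for HXT4, 0.90 for HXT2, 0.83 for HXT7, 0.82 for HXT5 and 0.68 for HXT13, against a median of 0.251 over 6457 probes. These 5 SDs exceeded those of 97.6%, 97.4%, 96.7%, 96.6% and 94.6% of the probes. The order among HXT7 and HXT5 rests on a difference of under 0.01. Then came HXT16 at 0.54, HXT15 at 0.47, HXT17 at 0.42, HXT3 at 0.39 and HXT1 at 0.33, which exceeded 90.5%, 87.9%, 83.6%, 81.3% and 71.6% of the probes. HXT4 ran from −2.75 to 1.81 and HXT5 from −1.21 to 3.46, a segregant range of 4.55 and 4.67 log2 units. HXT1 and HXT3 spanned 2.02 and 1.99 units.

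A spread among segregants can be read only beside that of the parental replicates. For this comparison the first dye-swap pair of each RM number was taken, so that a parental value was 1 pair, as a segregant value was. HXT2 varied more in segregants than in the parents, with an SD 3.25 times the parental one (limma on absolute deviations, adjusted p = 0.0162), as did HXT3, at 2.88 times (adjusted p = 0.0342). These were 2 of 7 members, against 26% of 5051 tested probes, of which 25.7% were wider in segregants and 0.277% narrower. Both calls were lost with quantile normalization between pairs (adjusted p = 0.0546 for HXT2 and 0.0955 for HXT3), where HXT7 was called narrower in segregants instead (−0.45, adjusted p = 0.0347). On the log2 scale of the deviations HXT13 was called wider as well (adjusted p = 0.0155). The share of the segregant variance beyond the pooled parental variance was 0.905 for HXT2, 0.879 for HXT3, 0.724 for HXT5, 0.663 for HXT13 and 0.447 for HXT1. It was 0.190 for HXT4 and 0.126 for HXT7, whose parental SDs of 0.83 and 0.77 include the gap between the BY sets. Since the parental replicates may be technical, this share may count variation between cultures as variation among segregants, which was not tested. The mean absolute deviation of segregants less that of the parents was −0.0101 for HXT4 and −0.0107 for HXT7, and 0.43 and 0.37 without BY replicates 1 and 2, with limma adjusted p of 0.0566 and 0.0571. HXT3 lost its call in 6 of 12 fits that each left out 1 replicate (adjusted p up to 0.0611): those without BY replicate 3, 4, 5 or 6 and those without RM replicate 5 or 6.

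No member was called as having 2 modes among segregants, at a BIC difference over 10 with 20% of segregants in each mode, where 2.39% of 6457 probes were called. HXT5 came nearest. Its BIC difference was 20.1, with 18 segregants (15.9%) in a mode around 1.64 and the rest around −0.15, and it was called when 10% of segregants in each mode sufficed, as were 4.27% of probes.

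Correlations across segregants were computed for all 45 pairs of members, over at least 99 segregants each. They share arrays and the reference pool, and the labels name no batch. After Benjamini-Hochberg adjustment over the 45 pairs, 20 passed in a permutation test, 9 positive and 11 negative. The weakest of these had an r of 0.218 in size, which 30.4% of all pairs of 5619 named probes reached, 15.7% with a positive r and 14.7% with a negative r. Without segregants 21 to 26, 19 pairs passed, of which 18 were among the 20. HXT2 with HXT4 and HXT5 with HXT13 no longer passed (r = 0.132 and −0.21, adjusted permutation p = 0.347 and 0.0901), and HXT1 with HXT13 did (r = −0.29, adjusted permutation p = 0.0154). HXT4 and HXT7 correlated most closely (r = 0.878, rho = 0.854, over all segregants), and r was 0.864 without the 2 segregants farthest from the median of HXT4. The permutation p of both r and rho was 1e-05, the smallest that 100000 permutations can give, and the adjusted p was 0.000112 and 6.43e-05. The genes lie on chromosomes VIII and IV of assembly R64. HXT5, a neighbour of HXT1 on chromosome VIII, went with HXT7 (r = 0.534, rho = 0.611, without 2 segregants r = 0.560, adjusted permutation p = 0.000112 and 6.43e-05) and with HXT4 (r = 0.407, rho = 0.436, without 2 segregants r = 0.392, adjusted permutation p = 0.000193 and 6.43e-05).

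**Figure D4:**
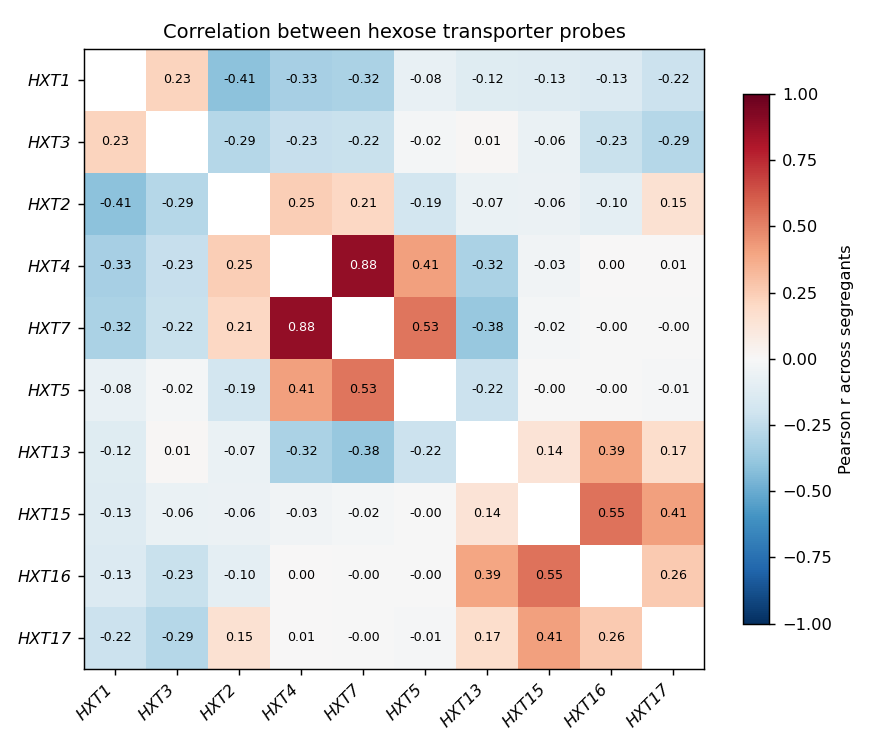
Pearson r across segregants between the 10 hexose transporter probes, from −1 (blue) to 1 (red), with each value printed. HXT4, HXT7 and HXT5 form a red block with r from 0.41 to 0.88, and HXT1 and HXT3 are negative with HXT2, HXT4 and HXT7.

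Over all segregants, the low-affinity transporters correlated negatively with HXT2, HXT4 and HXT7. Of all pairs of named probes, 14.7% had a negative r of at least 0.218 in size. HXT1 and HXT4 both lie on chromosome VIII, and HXT3 and HXT7 both lie on chromosome IV. Whether inheritance of linked genes bears on these pairs was not tested. HXT1 correlated negatively with HXT2 (r = −0.41, rho = −0.41), with HXT4 (r = −0.33, rho = −0.34) and with HXT7 (r = −0.32 and rho = −0.32), with adjusted permutation p of 0.000112, 0.00215 and 0.00319 for r and 6.43e-05, 0.0017 and 0.00315 for rho. Without 2 segregants r was −0.40, −0.34 and −0.34. HXT3 was negative with HXT2 (r = −0.29, rho = −0.31), HXT4 (r = −0.23, rho = −0.25) and HXT7 (r = −0.22 and rho = −0.22), with adjusted permutation p of 0.00874, 0.0361 and 0.0473 for r and 0.00315, 0.0202 and 0.0441 for rho. Without 2 segregants these were −0.32, −0.21 and −0.21. Within segregants 21 to 26 alone, r of HXT3 was 0.376 with HXT4 and 0.429 with HXT7, against −0.32 and −0.31 in the others. HXT1 and HXT3 themselves correlated weakly (r = 0.226, rho = 0.257, without 2 segregants 0.226, adjusted permutation p = 0.0438 and 0.0202). The repeat arrays of HXT1 correlated at 0.410, the lowest of the 10 members.

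In the sugar alcohol group 4 of 6 pairs passed, all with a positive r. Of all pairs of named probes, 15.7% had a positive r of at least 0.218, the size of the weakest pair of members that passed. HXT15 correlated with HXT16 (r = 0.546, rho = 0.481) and with HXT17 (r = 0.412, rho = 0.494), and without 2 segregants r was 0.436 and 0.388. The adjusted permutation p was 0.000112 and 0.000619 for r and 6.43e-05 for both rho. HXT16 also went with HXT17 (r = 0.264, rho = 0.250, without 2 segregants 0.288, adjusted permutation p = 0.0217 and 0.0235). The lowest value of both HXT15, −2.05, and HXT16, −2.42, came from the same segregant. HXT13 went with HXT16 (r = 0.394, rho = 0.458, without 2 segregants 0.413, adjusted permutation p = 0.00018 and 6.43e-05), whereas its r with HXT15 was 0.135 and with HXT17 was 0.173, which did not pass (adjusted permutation p = 0.286 and 0.139). In segregants 21 to 26, r was −0.33 for HXT13 with HXT16, −0.31 for HXT15 with HXT17, −0.54 for HXT16 with HXT17 and 0.830 for HXT13 with HXT17, against 0.397, 0.505, 0.338 and 0.0551 in the others. The values in segregants 21 to 26 rest on 17 or 18 strains, and their difference from the others was not tested. HXT13 was negative with HXT7 (r = −0.38, rho = −0.40, without 2 segregants −0.38) and HXT4 (r = −0.32, rho = −0.31, without 2 segregants −0.30), with adjusted permutation p of 0.000193 and 0.00292 for r. Within segregants 21 to 26 the r of HXT13 was −0.02 with HXT7 and 0.12 with HXT4, against −0.33 and −0.27 in the others. Coding sequences of this group are alike, so that probes may read more than 1 of them, which was not tested.

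The probes most like each member were sought among 5619 named probes, by Pearson r over segregants, as a description. HXT4 was most like HXT8 (r = 0.882), a transporter gene not among the 10, then HXT7 and HXT6 (0.870). HXT7 was most like its neighbour HXT6 (0.985), then HXT4 and HXT8 (0.841). HXT2 was most like MED1 (0.817), a subunit of the Mediator complex of transcription, with rho of 0.838. That r was 0.109 in segregants 21 to 26, where HXT2 lay as low as −1.75 beside a MED1 value of 0.0072, and 0.903 in the 95 others. MED1 averaged 0.28 in segregants, 0.26 in RM and −0.10 in 4 BY replicates, and the next probes, BRE2 and FOL1, reached only 0.477 and 0.470. HXT1 was most like STD1 (0.431), one of the partners of Rgt1, then SCC4 (0.426) and TAD3 (0.425), and least like MTH1 (−0.43), the paralog of STD1. The r of HXT1 with MTH1 was −0.58 in segregants 21 to 26 and −0.28 in the others. The least like probe is named for HXT1 only. HXT3 was most like MIG2 (0.504), a repressor gene related to MIG1, then HOT13 (0.466) and ADH1 (0.433), which encodes the main alcohol dehydrogenase of fermentation. HXT5 was most like FMP45 (0.825), GRE1 (0.810) and HBT1 (0.795), of which GRE1 is known as a stress-induced gene. FMP45 averaged 0.54 in segregants, 2.20 in RM and −0.08 in BY.

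HXT15 was most like HXT16, then YCL049C (0.491) and YNR071C (0.487), and HXT17 was most like UBA3 (0.524, but rho 0.314), SPO71 (0.466, but rho 0.157) and PCK1 (0.461). YNR071C is the neighbour of HXT17 in assembly R64. HXT16 was most like YCL020W (0.781) and YBL100W-A (0.702), which belong to Ty elements, the retrotransposons of yeast, and then MOB2 (0.555). HXT13 was most like VPS8 (0.855), a gene of vesicle traffic, and then the Ty genes YBL100W-B (0.850) and YMR046C (0.845). Within segregants 21 to 26, r with HXT13 was 0.586 for VPS8, 0.445 for YBL100W-B and −0.09 for YMR046C, and r with HXT16 was 0.249 for YCL020W and 0.217 for YBL100W-A. HXT15 with YNR071C gave −0.16 there and 0.577 in the others.

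Ty element genes exist in many near-identical copies, which differ in number between strains. After this likeness was seen, 23 Ty genes with enough values were averaged in each segregant, and HXT13 correlated with that mean at r = 0.0137 and rho = −0.06 in segregants 21 to 26. In the 95 other segregants r was 0.950 and rho was 0.921. Over both sets r was 0.753, or 0.718 without 2 segregants, and HXT13 had r over 0.6 with 21 of the 23. The other members reached from −0.29 to 0.397, the last for HXT16. The gene means of the 23 had a median of −0.64 in segregants, −3.43 in RM and 0.18 in BY, so that most were low in RM as HXT13 was. Of 21 tested Ty genes, 19 were called lower in RM and 2 higher, with a median difference of −3.60. At the midpoint, 13 of the 21 were called above it and 0 below, with a median of 0.95. Among all tested probes 21.9% were called lower in RM and 1.4% above the midpoint. SOR2, a sorbitol dehydrogenase gene beside HXT15, averaged −0.77 in segregants, −4.49 in RM and −0.52 in 2 BY replicates. It correlated with the Ty mean at 0.775 in segregants 21 to 26 and 0.837 in the others, but with HXT13 at 0.0028 and 0.894. The neighbours themselves correlated weakly, at 0.174 for HXT15 with SOR2, 0.0339 for HXT16 with SOR1, 0.236 for HXT17 with MAN2 and 0.0996 for HXT13 with DSF1, its polyol dehydrogenase neighbour. Whether probe sequences or spot position link these probes was not tested.

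**Figure D5:**
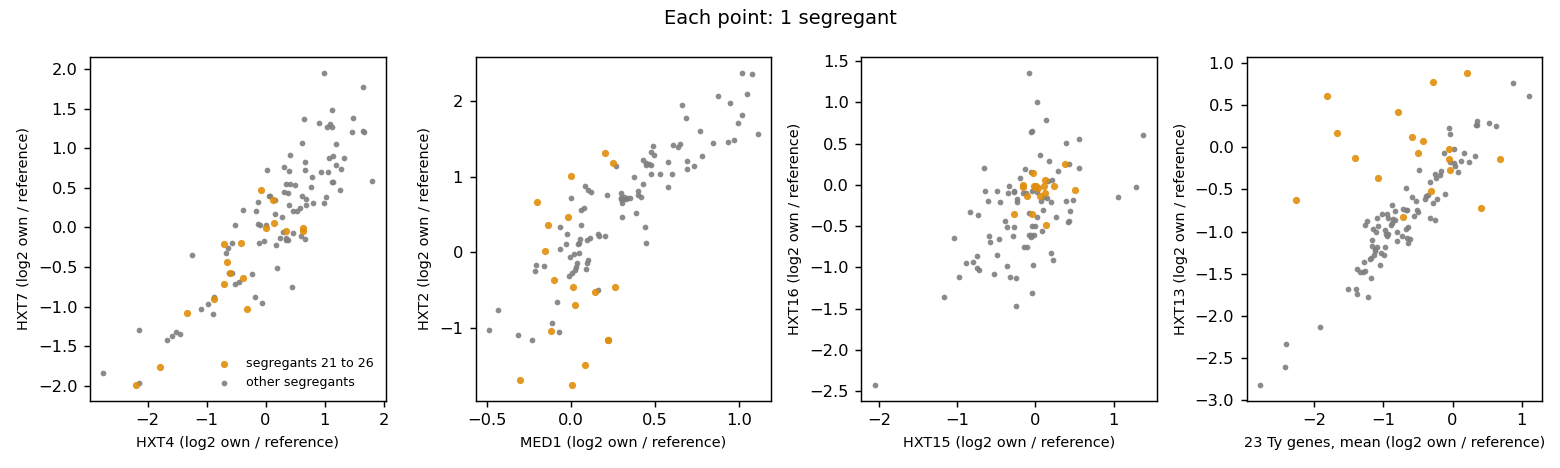
Log2 ratios of own RNA over the BY pool, 1 point per segregant, with segregants 21 to 26 in orange and the others in grey: HXT7 against HXT4, HXT2 against MED1, HXT16 against HXT15 and HXT13 against the mean of 23 Ty element genes. In the last panel the orange points do not follow the line (r = 0.0137) that the grey points follow (r = 0.950), whereas in the first panel both sets follow 1 line (r = 0.872 in orange and 0.867 in grey).

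Genes of the pathways around the transporters are given by list, beside the 52.1% of all tested probes called between the parents and their median difference of 0.015. Calls without BY replicates 1 and 2 are to be read beside the 63.3% of 5157 probes called in that fit. Of those probes, 1704 were called higher in RM and 1561 lower. Of 4 sugar phosphorylating enzymes, HXK2, the main hexokinase on glucose, was lower in RM (log2 difference −0.89, SE 0.0504, limma adjusted p = 6.71e-09) and 3 were not called, with a list median of 0.00029. Those 3, HXK1, GLK1 and EMI2, were called higher without BY replicates 1 and 2, by 0.87, 0.33 and 0.34. Of 7 tested genes of glucose sensing through Rgt1, 2 were higher, RGT1 (0.29, limma adjusted p = 0.0105) and the kinase gene YCK2 (0.12, limma adjusted p = 0.0229), and 5 were not called, with a list median of 0.064. Without BY replicates 1 and 2, RGT1 was higher (0.38), STD1 was lower (−0.24) and YCK2 was not called. Among 8 other hexose transporter genes 2 were tested, of which HXT8 was higher in RM (0.72, SE 0.249, limma adjusted p = 0.0290) and HXT6 was not called, with a median of 0.77. Both were called higher without BY replicates 1 and 2, at 1.19 and 1.62.

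The repression pathway of Snf1 and Mig1 had 6 of 11 tested genes higher in RM and 3 lower, with a list median of 0.20. GLC7, a phosphatase gene, was higher by 0.34, SNF1 by 0.32, TUP1, a corepressor gene, by 0.24 and SNF4 by 0.23, whereas MIG2 differed by −0.43 and TOS3, a kinase gene upstream of Snf1, by −0.36 (limma adjusted p from 1.08e-05 to 0.00142). GLC7 was also the 1 gene of the list below the midpoint in segregants (−0.18, limma adjusted p = 0.0120). Of 7 tested genes repressed by glucose, 4 were lower in RM and 2 higher, with a list median of −0.14. SUC2, which encodes invertase, differed by −1.49, ADH2, of ethanol use, by −0.73, GAL80 by −0.26 and GAL4 by −0.14, while HAP4, an activator of respiration genes, differed by 1.22 and ADR1 by 0.99 (limma adjusted p from 8.49e-08 to 0.0378). Without BY replicates 1 and 2 GAL4 lost its call and MAL11, a maltose transporter gene, was higher (0.21, limma adjusted p = 0.00694). SUC2 and GAL80 lay above the midpoint in segregants, by 0.57 and 0.21 (limma adjusted p = 0.0363 and 0.00552). Of 13 tested genes of protein kinase A signalling 8 were higher and 0 were lower, with a list median of 0.18. Those higher included GPA2 (0.74), MSN4 (0.66), BCY1 (0.63), MSN2 (0.54), SCH9 (0.25) and PDE2 (0.18). The other 5 were not called, with limma adjusted p from 0.0542 to 0.432. Without BY replicates 1 and 2, 9 were higher and 1 was lower: TPK2, a catalytic subunit gene, was then called higher (0.24, limma adjusted p = 0.00679) and RAS1 lower (−0.17, limma adjusted p = 0.00153).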

How the data were processed

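The authors deposited 1 log ratio per probe and array, treated as log2 because the largest absolute value, 11.98, exceeds 11.09, the natural logarithm of a 16-bit range. Each array had been centred to a mean of 0 (largest absolute array mean 1.16e-08). How arrays were scanned and which spots were filtered is not given in the sources used here, and neither are the base and the direction. Deposited log2 ratios ran as reference over own RNA on both dye orientations, and the sign was turned. A pair's value was the mean of its arrays, or 1 array where the other was missing, and RM repeats of a replicate number were averaged. The 7085 probes include 1440 without a gene symbol, which are not named, and 180 without any value. Gene names come from the platform's probe table, and neighbours from RefSeq genes of assembly R64, whose coordinates were not used. Precision is limited by the number of arrays.

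Tested probes lacked no more than 1 replicate in either parent and had values in 80% of segregants or more. The test was limma 3.58.1 (lmFit, eBayes; R 4.3.3) on RM and BY alone, on all 3 groups for the midpoint, and on absolute deviations from group means for spread, with the first dye-swap pair of each RM number. Adjusted p-values (Benjamini-Hochberg) cover all tested probes. Modes were fitted with mclust 6.1.1. Fits were tested on simulated data. The rest was done in Python 3.11.15 (pandas 2.3.3, numpy 2.4.6, scipy 1.17.1), with figures drawn in matplotlib 3.10.9. Replicate numbers were taken as pairing RM with BY, since deviations of same-numbered samples from their group means correlated at 0.116 to 0.465 across 3888 probes in each of 6 pairs. BY replicates 1, 3 and 5 correlated best with the RM sample of their own number, and BY replicates 2, 4 and 6 did not. The pairing is therefore an assumption. Whether the split of replicates 1 and 2 from 3 to 6 in both parents gives these correlations was not tested. Members, gene lists and tests were chosen with earlier results of these data known, and the Ty list after likeness to HXT13 was seen. Named genes are all members, at most 6 called genes per list by adjusted p, and the 3 probes most like each member; HXK1, GLK1, EMI2, STD1, MTH1, SOR1, MAN2, MAL11, RAS1, SOR2 and DSF1 were named after their values were seen. Alternatives are given in the closing section. No sequences were used.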

Additional observations from a re-analysis of the deposited data

How the results depend on the processing

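Over 584 recomputed results, 512 kept direction and call, or stayed within 1.5 times the count, 72 did not, and 16 of these changed sign. The call of HXT13 held in all 24 parental alternatives and all 24 at the midpoint (0.61 to 1.64). With the replicate number as a block, HXT1 (−0.27) and HXT7 (0.82) were called between the parents and no other member's call changed. Without BY replicates 1 and 2 so were HXT1 (−0.42) and HXT7 (1.45), and HXT5 (0.41) was not. With all 12 RM pairs as replicates HXT1 (−0.26) and HXT7 (0.83) were called. With the first repeat of each RM number HXT5 (0.49) was not. HXT7 was called with both arrays of a pair required (1.10) and with own RNA in Cy3 only (1.07). With all 3 groups in the fit, 1 member and 835 probes were called, and HXT2 (0.80), HXT3 (−0.57), HXT4 (1.05) and HXT5 (0.48) were not. With quantile normalization 3 members were called, and HXT4 (1.82) and HXT5 (0.25) were not. All probes called numbered 1478 of 2639 with both arrays required and 1648 of 3359 in Cy3, where fewer probes were tested. At the midpoint, array weights by group called 3 members, HXT2 (0.54) and HXT4 (0.44) besides HXT13. The share of all probes called with these weights is not given. HXT1 turned to 0.0052 at the midpoint with quantile normalization. Of all midpoint calls, 69.6% lay above it, against 87.4% with arrays centred on the median and 52.4% with quantile normalization.

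Leaving out 1 replicate gave 4 to 7 members called and 2453 to 2845 probes. HXT1 then lay between −0.38 and −0.21, HXT4 between 0.89 and 1.34 and HXT7 between 0.66 and 1.10; HXT1 at the midpoint lay between −0.0854 and 0.00076. For spread, 1 to 2 members were called, HXT4 lay between −0.0743 and 0.14 and HXT7 between −0.0802 and 0.14. HXT4's spread difference was −0.0101 with all replicates, 0.43 without BY replicates 1 and 2 and 0.052 in Cy3. That of HXT7 was −0.0107, with 0.37 without those replicates, 0.14 with both arrays required and 0.20 in Cy3. With quantile normalization HXT1's was −0.0777, the calls of HXT2 (0.54) and HXT3 (0.17) were lost and 1 member was called, HXT7 as narrower (−0.45). With 10% in the smaller mode 1 member had 2 modes. Correlated pairs numbered 11 of 21 with both arrays required and 11 of 28 in Cy3. The cause of these changes was not tested, apart from the smaller numbers tested. Leaving out segregants 21 to 26, chosen after the data were seen, changed no call of a member at the midpoint, in spread or in modes.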

Other observations

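Of 8 further hexose transporter genes, 6 had too few BY values for a test, GAL2, which encodes the galactose permease, averaged 0.33 in segregants and ran from 0.77 to 1.99 in 6 RM replicates, and read −0.60 and 0.13 in the 2 BY replicates that measured it. HXT11 averaged −0.27 in segregants and ran from −1.07 to −0.59 in 6 RM replicates, and read 0.33 and 0.41 in 2 BY replicates. HXT9 averaged −0.36 in segregants and ran from −0.72 to −0.58 in 4 RM replicates, and read −0.11 and −0.02 in 2 BY replicates. HXT12 averaged −0.38 in segregants and ran from −0.77 to −0.31 in 5 RM replicates, and read 0.41 in 1 BY replicate. HXT10 averaged −0.07 in segregants, −0.22 in 2 RM replicates and −0.44 in 2 BY replicates. HXT14 averaged −0.07 in segregants and ran from −0.61 to −0.18 in 5 RM replicates, and read −0.50 in 1 BY replicate. The differences between the parents were not tested in these genes.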
